A study of Drosophila melanogaster with 14 samples.

Results

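The binding of dCTCF in untreated Kc167 cells was set against its binding after 3 h of 20-hydroxyecdysone, by comparing the peak list of each time. On the 6 chromosome arms X, 2L, 2R, 3L, 3R and 4, the untreated (0 h) list held 4003 dCTCF peaks and the 3 h list held 4085, out of 81028 peaks in all lists of the series and on all sequences. A peak was shared when it overlapped a peak of the other list by 1 bp or more. It was called lost (0 h list) or gained (3 h list) when no peak of the other list lay within 1 kb. Kc167 is an established Drosophila embryonic cell line, grown here in serum-free CCM3 medium. The hormone was given at 5e-07 M, and the untreated cells received none. Chromatin immunoprecipitation followed by sequencing (ChIP-seq) was done for dCTCF, CP190, Su(Hw) and BEAF-32 at 0, 3 and 48 h, with 1 library for each protein and time. The dCTCF antibody was made in the Corces laboratory. There are no replicates, so no difference below was tested between conditions. Intervals are 95% Wilson intervals of a share of peaks, which cover counting error only.

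dCTCF is the fly counterpart of vertebrate CTCF, a zinc-finger protein that binds DNA directly and is found at insulators and at borders of chromatin domains. CP190 is a cofactor that is recruited to insulators by several DNA-binding proteins, among them dCTCF, Su(Hw), which binds the insulator of the gypsy retrotransposon, and BEAF-32, which is found mostly near promoters. The hormone 20-hydroxyecdysone drives moulting and metamorphosis through the ecdysone receptor, and Kc cells respond to it in culture.

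Most dCTCF binding was found at both times. Of the 0 h peaks, 3389 were shared (84.7%, interval 83.5 to 85.7), 96 lay beside a 3 h peak without touching it, and 518 were lost. The lost peaks were 12.9% of the list (11.9 to 14.0). Of the 3 h peaks, 3388 were shared (82.9%), 105 lay within 1 kb of a 0 h peak, and 592 were gained, which was 14.5% of the list (13.4 to 15.6). These shares follow from the definition of the classes and are given as a description.

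The peaks that differed between the lists were mostly weak ones. The deposited files give each peak a score made by the authors. How it was computed is not given in the labels or files used here, and the lists may not share one scale, so scores of different times are set side by side as listed. It starts at 100, and peaks with the highest values pile up at 3100, which is treated here as a ceiling. The median score was 137.9 for the lost peaks (middle 50%, 114.9 to 185.1) and 899.7 for the shared peaks of the 0 h list. In the 3 h list it was 136.6 for the gained peaks (114.6 to 175.2) and 612.9 for the shared peaks. Of the 0 h peaks with a score under 150, 308 of 678 were lost (45.4%, 41.7 to 49.2). The share was 27.5% from 150 to 200, 15.7% from 200 to 300 and 2.46% from 300 to the ceiling. None of the 1217 peaks at the ceiling was lost, which allows a share of up to 0.315%. The gained peaks followed the same steps, with 350 of 753 peaks under 150 (46.5%), then 31.2%, 16.1% and 0.759%, and none of the 1026 peaks at the ceiling. The lost and gained peaks were also narrower, with median widths of 417.5 bp and 448 bp against 571 bp and 587 bp for the shared peaks of the same lists. Weak shared peaks were about as narrow as the lost ones. Those under 150 at 0 h that paired one-to-one with a 3 h peak had a median width of 420 bp at 0 h. For the gained peaks, widths were not split by the 3 h score. A weak peak near the lowest score of a list can miss the list of the other library, and its part in these counts was not tested. The number of reads behind each list is not known.

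**Figure D1:**
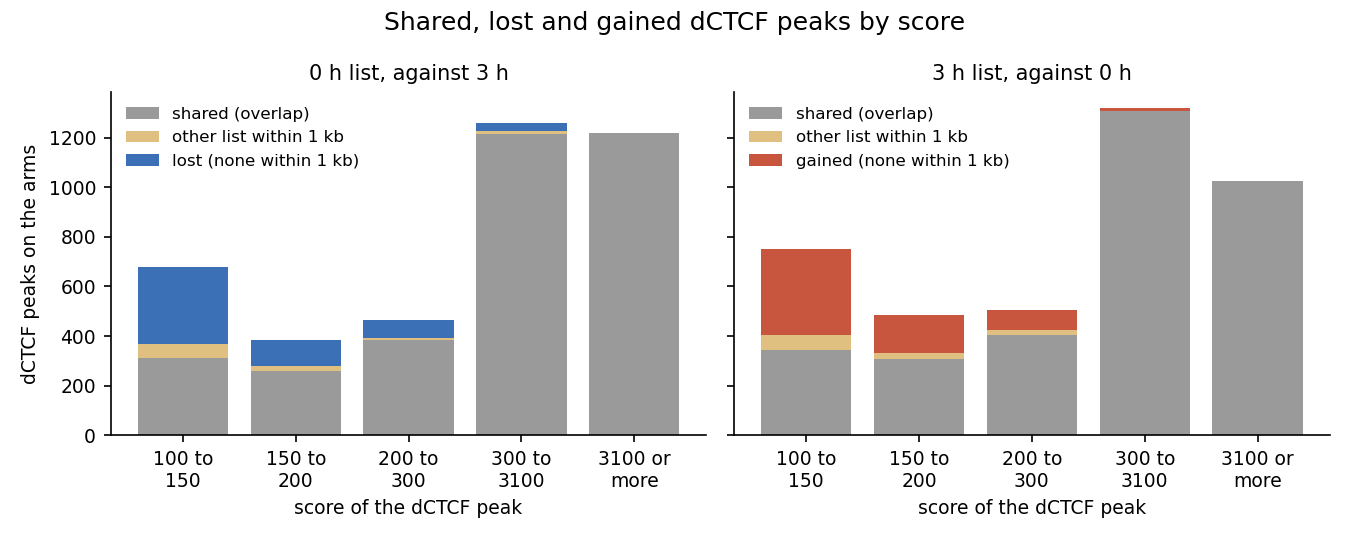
Number of dCTCF peaks on the 6 arms in each class of score, for the 0 h list (left) and the 3 h list (right), split into shared peaks, peaks with a peak of the other list within 1 kb, and lost or gained peaks. Lost and gained peaks sit in the 3 lowest score classes with few exceptions (31 lost and 10 gained from 300 to 3100), and none is at 3100 or above.

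The strongest lost peaks were few, and most of the 10 with the highest scores stood without Su(Hw) and BEAF-32 at 0 h. This does not hold for all 31 lost peaks with scores of 300 or more. Of these, 14 had Su(Hw) at 0 h (45.2%), 11 had BEAF-32 (35.5%) and 7 had no partner (22.6%). At shared peaks of that score the shares were 60.8%, 48.6% and 24.4%. The highest score was at 2L:21296179-21296836, with a dCTCF score of 1754.35 at 0 h and no peak at 3 or 48 h. No partner peak overlapped it at 0 or 3 h, and CP190 overlapped it at 48 h alone (score 668.84). The lost peaks at 2L:82668-83109 (734.53) and 2R:13621943-13622558 (688.72) had the same arrangement, with CP190 at 48 h only (458.31 and 341.56) and no dCTCF peak at 48 h. The peak at X:6622746-6623249 (704.70) went the other way for CP190, which had scores of 326.56 at 0 h and 495.79 at 3 h and no peak at 48 h. At 3L:8447968-8448375 (436.03) none of the 3 partners had a peak at any time. Of the 10 strongest lost peaks, 5 had no partner peak at 0 h, and 3 of those 5 had CP190 at 48 h.

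The other 5 of the 10 strongest lost peaks had dCTCF again at 48 h, and 4 of these 5 lay on partner peaks found at every time. At X:15803559-15804415 the dCTCF score was 442.59 at 0 h and 544.68 at 48 h, with no peak at 3 h, while CP190 (315.82, 780.40 and 488.67 at 0, 3 and 48 h), Su(Hw) and BEAF-32 were found at each time. At X:12861219-12861709 dCTCF had 438.58 at 0 h and 307.49 at 48 h, and CP190 was at the ceiling at all times. The peak at 4:968292-969017 had 437.35 and 337.38, and the peak at 2R:8756682-8757403 had 449.36 and 281.58, both with CP190 at all times. The fifth, 3L:22924979-22925495 (533.13), came back near the lowest score (101.99) and had no partner. In all, 5 of the 10 overlapped a 48 h dCTCF peak. The nearest dCTCF peak of the 3 h list was 6681 bp from X:12861219-12861709 and 49254 bp from X:15803559-15804415.

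Because 3 strong lost peaks had CP190 only at 48 h, the same arrangement was counted over all peaks that had CP190 at neither 0 nor 3 h, a count chosen after these peaks were seen. CP190 was present at 48 h at 5 of 129 such lost peaks (3.88%, 1.67 to 8.75) and at 19 of 856 such shared peaks (2.22%, 1.43 to 3.44). The 5 include the 3 named peaks that prompted the count, which are also the only ones among the 7 such lost peaks with a dCTCF score from 300 to the ceiling. Under a score of 200 it was 2 of 102 lost peaks and 2 of 119 shared peaks.

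The strongest gained peaks had another partner set. The top one, X:17425862-17426198, had dCTCF scores of 698.20 at 3 h and 2103.33 at 48 h and none at 0 h, and no partner peak except a weak CP190 peak at 48 h (109.85). At X:8699685-8700271 dCTCF had 473.34 at 3 h only, on a site with Su(Hw) at 949.61, 2049.65 and 1109.45 and BEAF-32 at 553.85, 976.24 and 382.19 at 0, 3 and 48 h, and without CP190 at any time. At 3L:11545958-11546833 dCTCF had 337.87 at 3 h and 150.44 at 48 h, with Su(Hw) at 336.11, 819.06 and 713.73 and no other partner. At 3L:8685421-8686090 dCTCF had 304.19 at 3 h and 178.40 at 48 h, with Su(Hw) at 382.33, 608.30 and 553.92 and weak BEAF-32 from 3 h on (127.71 and 117.27). The peaks at 2R:2933070-2933582 (362.77), 2R:9895816-9896286 (337.34), 2L:21899138-21899810 (314.25) and 3L:15100465-15101024 (307.79) also had Su(Hw) at 3 h and CP190 at no time. Like the top peak, 3R:8327916-8328402 (301.53) had no partner at 3 h and a weak CP190 peak at 48 h (113.40). Of the 10 strongest gained peaks, 8 had Su(Hw) at 3 h, and 7 of these had it without CP190. Of the 10, 7 had Su(Hw) already at 0 h. The exception with CP190 was X:11515681-11516351 (391.48 at 3 h, 250.98 at 48 h), which had CP190, Su(Hw) and BEAF-32 at every time. At the 2333 shared 3 h peaks with scores of 300 or more, Su(Hw) was at 61.4% at 3 h and 61.0% at 0 h. It lay without CP190 at 123 of them at 3 h. Of the 10 strongest lost peaks, none had Su(Hw) without CP190. That set was rare among all 0 h peaks with scores of 300 or more (111 of 2475).

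Over all gained peaks, CP190 was the partner whose share differed most from that at shared peaks. It overlapped 47.0% of the gained peaks at 3 h and 74.1% of the shared peaks of the 3 h list. Among lost peaks CP190 was about as frequent at 0 h (69.9%) as among shared peaks (71.7%), but the difference of -1.79 points was -6.58 with partner scores of at least 200, -11.9 on all sequences and -13.7 at dCTCF scores of 200 to 300. Su(Hw) overlapped 45.2% of the lost peaks (40.9 to 49.5) and 61.0% of the shared peaks (59.3 to 62.6) at 0 h, and 56.1% of the gained and 61.4% of the shared peaks at 3 h. This last order turned at dCTCF scores of 300 or more (18.6 percentage points higher at gained peaks, Newcombe interval -12.4 to 33.1). That value rests on the 10 gained peaks named above. It also turned on all sequences (3.23 points higher, -0.785 to 7.26), and both intervals cover a lower share too. BEAF-32 overlapped 50.8% of the lost and 51.7% of the shared peaks at 0 h, and 57.9% of the gained and 57.5% of the shared peaks at 3 h. All 3 partners were present at 20.3% of the lost peaks and 37.3% of the shared peaks at 0 h.

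Since weak peaks prevail among the lost and gained, the same shares were read below a dCTCF score of 200. CP190 was then at 49.1% of the gained peaks (44.7 to 53.5) and 81.2% of the shared peaks (78.0 to 84.0) at 3 h. At 0 h it was at 290 of the 414 lost peaks (65.5 to 74.3%) and 428 of the 571 shared peaks (71.2 to 78.3%). Su(Hw) was at 44.7% of the lost and 58.3% of the shared peaks at 0 h, and at 54.3% and 57.8% of the gained and shared peaks at 3 h. BEAF-32, at like shares in both classes over all scores, was at 59.3% of the gained peaks and 72.6% of the shared peaks at 3 h in this range. The lower share of CP190 at gained peaks was not confined to this range. The difference was -47.0 points at dCTCF scores of 200 to 300. At 300 or more it was -60.2 points (-68.6 to -29.7), where 1 of only 10 gained peaks had CP190. For BEAF-32 the difference was -22.3 points at 200 to 300 and -10.4 points at 300 or more (-33.7 to 18.4, the same 10 gained peaks).

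Read by partner set, the share of peaks that were gained was highest where Su(Hw) or BEAF-32 lay without CP190. Many gained peaks lay elsewhere, and CP190 was at 278 of all 592. This grouping was chosen after the values had been seen. Of the 440 dCTCF peaks at 3 h with Su(Hw) and no CP190, 196 were gained (44.5%, 40.0 to 49.2), against 278 of the 2838 with CP190 (9.80%, 8.76 to 10.9). The difference was 34.7 percentage points (Newcombe interval 30.0 to 39.5). Of the 85 peaks with BEAF-32 alone, 43 were gained (50.6%, 40.2 to 61.0). In contrast, 75 of the 722 peaks with no partner were gained (10.4%, 8.37 to 12.8), and 89 of the 1475 peaks with all 3 partners (6.03%, 4.93 to 7.37). The peaks without a partner were strong, with a median dCTCF score of 1685.8. Under a score of 200, 58 of 123 peaks with no partner were gained (47.2%, 38.6 to 55.9), 41 of 58 with BEAF-32 alone (70.7%, 58.0 to 80.8), 79 of 123 with Su(Hw) alone (64.2%, 55.4 to 72.1) and 73 of 335 with all 3 partners (21.8%, 17.7 to 26.5). At 200 or more, the share was 20.4% (40 of 196) with Su(Hw) and no CP190 and 1.58% (32 of 2026) with CP190. On each of X, 2L, 2R, 3L and 3R the share with Su(Hw) and no CP190 was 39.2% or more, and it was highest on 3R (50.9%).

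For lost peaks this was seen over all scores with BEAF-32 and not with Su(Hw). Of the 266 dCTCF peaks at 0 h with Su(Hw) and no CP190, 38 were lost (14.3%, 10.6 to 19.0), against 362 of 2852 with CP190 (12.7%, 11.5 to 14.0). Under a score of 200 the lost share was lower with Su(Hw) and no CP190 (27.7%, 20.5 to 36.4) than with CP190 (37.7%, 34.3 to 41.1), with overlapping intervals, and it was 52.3% (44.9 to 59.6) with neither. The set lost most often over all scores was BEAF-32 alone, with 35 of 101 peaks (34.7%, 26.1 to 44.3), against 10.6% of the peaks with no partner and 7.58% of those with all 3. The peaks with BEAF-32 alone were weaker, with a median dCTCF score of 190.7 against 2926.6 with no partner. Under 200, BEAF-32 alone was also the highest set (31 of 53, 58.5%, 45.1 to 70.7). There 60 of 121 peaks with no partner were lost (49.6%, 40.8 to 58.4), and the intervals overlap.

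**Figure D2:**
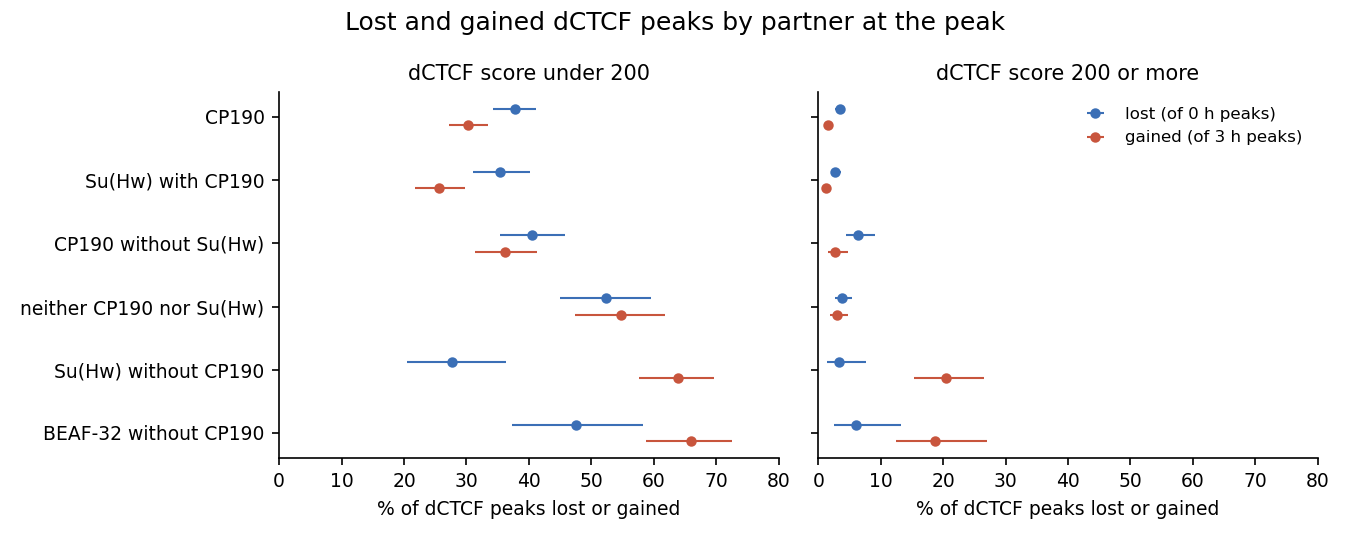
Percent of dCTCF peaks lost (blue, of 0 h peaks, partners at 0 h) or gained (red, of 3 h peaks, partners at 3 h) by the partners that overlap them, for dCTCF scores under 200 (left) and 200 or more (right); bars are 95% Wilson intervals. The gained shares were 63.9% and 20.4% with Su(Hw) and no CP190, and 65.9% and 18.7% with BEAF-32 and no CP190. These stand to the right of the other plotted groups. Under 200 the lost share was highest with neither CP190 nor Su(Hw) (52.3%), then with BEAF-32 without CP190 (47.6%). It was lowest with Su(Hw) without CP190 (27.7%). The groups share peaks.

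Counted from the side of Su(Hw), which takes in the same gained peaks and is no separate evidence, sites without CP190 held a dCTCF peak in a larger share of the 3 h list than of the 0 and 48 h lists. Of the Su(Hw) peaks without CP190 at the same time, 269 of 4124 overlapped a dCTCF peak at 0 h (6.52%, 5.81 to 7.32), 436 of 4220 at 3 h (10.3%, 9.45 to 11.3) and 299 of 4470 at 48 h (6.69%, 5.99 to 7.46). These intervals cover the counting of peaks within 1 library a time, and not the spread between libraries. The difference was found at Su(Hw) scores from 200 to 1000 (9.95%, 17.5% and 10.4% at 0, 3 and 48 h) and from 1000 to the ceiling (3.39%, 6.70% and 3.46%), and was small under 200 (9.47%, 9.58% and 8.06%). The share went another way at Su(Hw) peaks with CP190. A dCTCF peak overlapped 2062 of 3827 at 0 h (53.9%), 2051 of 4272 at 3 h (48.0%) and 1778 of 3859 at 48 h (46.1%). The number with dCTCF was thus about the same at 0 and 3 h, and the lower share at 3 h came with more Su(Hw) peaks. The Su(Hw) score at gained dCTCF peaks without CP190 had a median of 459.0 (middle 50%, 269.1 to 818.9), and 9 of 196 were at the ceiling. The dCTCF list at 3 h was longer than at 48 h (3333 peaks on the arms) and about as long as at 0 h. The part of list length and depth in this pattern was not tested.

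**Figure D3:**
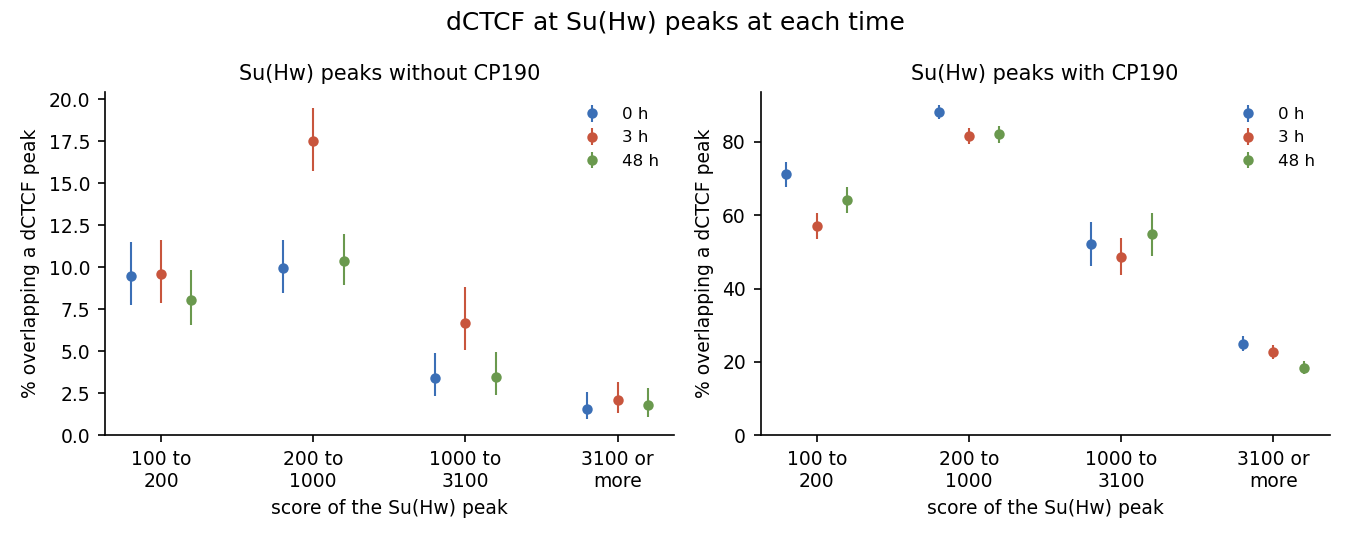
Percent of Su(Hw) peaks that overlap a dCTCF peak of the same time at 0 h (blue), 3 h (red) and 48 h (green), by the score of the Su(Hw) peak, for Su(Hw) peaks without (left) and with (right) an overlapping CP190 peak; bars are 95% Wilson intervals and the 2 panels have different scales. Without CP190, the 3 h point stands above the others at scores from 200 to 1000 (17.5% against 9.95% and 10.4%), which is not seen with CP190.

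Partner peaks mostly stayed where dCTCF was lost or gained. At the lost peaks that had CP190 at 0 h, CP190 was missing at 3 h at 5 of 362 (1.38%, 0.591 to 3.19), against 28 of 2429 shared peaks (1.15%, 0.799 to 1.66), and 3.57% of all CP190 peaks at 0 h had no overlapping 3 h peak. For BEAF-32 it was 0 of 263 lost peaks (up to 1.44%) and 188 of 1751 shared peaks (10.7%), where 9.63% of all BEAF-32 peaks at 0 h had no 3 h peak. Under a dCTCF score of 200 it was 0 of 215 lost peaks (up to 1.76%) and 6 of 332 shared peaks (1.81%). Su(Hw) was missing at 3 h at 35 of 234 lost peaks (15.0%, 11.0 to 20.1) and 162 of 2067 shared peaks (7.84%), against 7.51% of all Su(Hw) peaks. In dCTCF peaks under 200 these Su(Hw) shares were 15.7% and 13.8%, so that the difference was within the counting intervals among weak peaks. At gained peaks, a 0 h partner peak was missing at 3 h at 8 of 260 for CP190 (3.08%, 1.57 to 5.95). For Su(Hw) it was 31 of 321 (9.66%, 6.89 to 13.4) and for BEAF-32 31 of 231 (13.4%, 9.62 to 18.4). At shared 3 h peaks the shares were 1.15%, 7.85% and 10.7%.

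New partner peaks at gained dCTCF sites were mostly BEAF-32. Of the gained peaks with BEAF-32 at 3 h, 143 of 343 had no BEAF-32 peak at 0 h (41.7%, 36.6 to 47.0), against 384 of 1948 shared peaks (19.7%, 18.0 to 21.5). Of all BEAF-32 peaks at 3 h, 35.7% had no 0 h peak, so the share at gained dCTCF peaks was near that of the BEAF-32 list and the share at shared peaks was below it. The BEAF-32 list itself had 4187 arm peaks at 0 h and 5882 at 3 h. For CP190 the share without a 0 h peak was 9.35% (26 of 278) at gained peaks and 4.18% at shared peaks, where 13.1% of all CP190 peaks at 3 h had none. For Su(Hw) it was 12.7% (42 of 332) and 8.60%, where it was also 13.1% of the whole list.

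Many of the BEAF-32 peaks that were missing at 3 h lay on the strongest dCTCF peaks. This was noticed in the values and then counted. Of the 403 BEAF-32 peaks at 0 h with no overlapping 3 h peak, 181 overlapped a dCTCF peak at the score ceiling (44.9%, 40.1 to 49.8), against 405 of the 3784 BEAF-32 peaks found at both times (10.7%, 9.76 to 11.7). The BEAF-32 peaks missing at 3 h were weak, with a median score of 193.2 against 1671.2 for those found at both times. Only 192 of the 403 lay on a dCTCF peak of the 0 h list at all, so 181 of these 192 were at the ceiling. Of the CP190 peaks found only at 0 h, 12 of 204 lay on a ceiling dCTCF peak (5.88%), against 13.4% of those found at both times.

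Shared dCTCF peaks kept much of their order by score. Among the shared peaks, 3296 formed one-to-one pairs, which was 97.3% of the shared 0 h peaks. Each pair was given its percentile rank among the 3296 at each time, since a score can only be read within its own list. Both peaks were at the ceiling in 995 pairs, the 0 h peak alone in 189 and the 3 h peak alone in 0. The 189 had a median score of 2102.0 at 3 h. Spearman's correlation of the scores of the 2 times was 0.930 over all pairs and 0.789 over the 2112 pairs below the ceiling at both times, which share most of their sites and the antibody.

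Rank differences of over 10 percentile points were seen in 29.4% of all pairs, with 387 pairs higher at 3 h (11.7%) and 582 lower (17.7%). When only the 2112 pairs below the ceiling were ranked, 570 were higher (27.0%) and 544 lower (25.8%), and the middle 50% of the shifts ran from -10.6 to 11.0 points. The shares differed most by the score at 0 h, which the choice of a starting score in part fixes: under 150, 56.5% ranked higher and 1.66% lower, and from 300 to the ceiling 15.5% ranked higher and 30.0% lower. The partner shares that follow were not split by score, and the part of the score in them was not tested. Where BEAF-32 was present at both times, 30.2% of pairs ranked higher and 23.0% lower, and where it was absent at both times 18.1% ranked higher and 30.9% lower. For Su(Hw) the shares were 29.5% higher and 22.9% lower where present at both times, and 21.2% higher and 38.1% lower at the 113 pairs where it was found at 0 h only. For CP190 they were 26.9% higher and 26.6% lower where present at both times. At sites where dCTCF and a partner were both below the ceiling, their rank shifts had Spearman correlations of -0.0129 with CP190 (864 sites), 0.168 with Su(Hw) (966 sites) and -0.0926 with BEAF-32 (166 sites), given as a description, since such weak values are no finding.

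**Figure D4:**
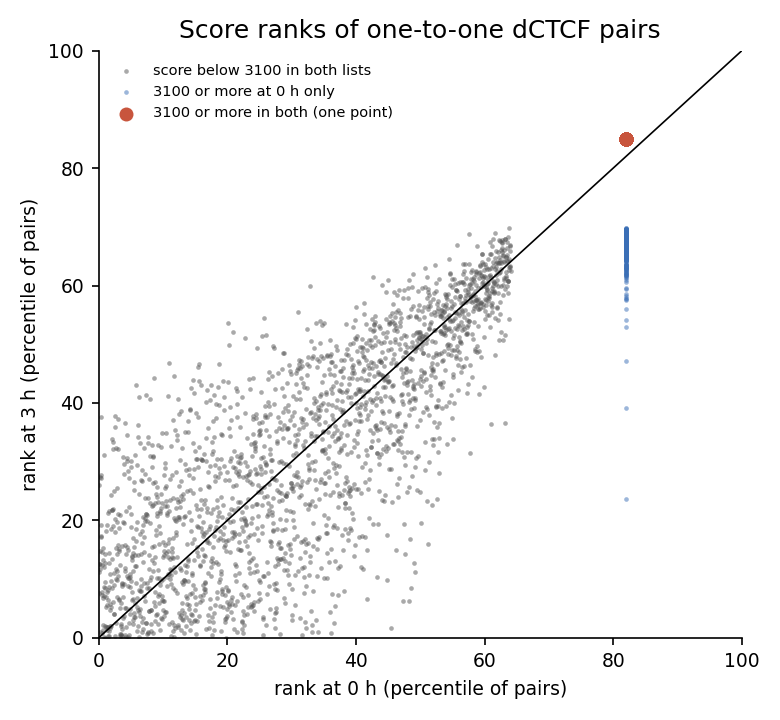
Percentile rank of the dCTCF score at 0 h (x axis) and 3 h (y axis) for the 3296 one-to-one pairs, where the line marks equal ranks; the 995 pairs at the ceiling at both times fall on one red point and the 189 at the ceiling at 0 h only form the blue column. Points spread around the line at low ranks and gather near it towards rank 60, and the blue column reaches down to the pair that ranked 58.4 points lower at 3 h.

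The pair that ranked most below its 0 h place was 2R:4316617-4317194. Its dCTCF score was at the ceiling (3100) at 0 h, 231.32 at 3 h and 1678.96 at 48 h, a shift of -58.4 points at 3 h. It had no partner at 0 or 3 h and CP190 at 48 h (1754.31). The same held for 3 of the 10 strongest lost peaks, but those had no dCTCF peak at 48 h. At X:7827169-7827903 dCTCF scored 785.66, 130.97 and 1088.05 at 0, 3 and 48 h, with CP190 and BEAF-32 at the ceiling throughout. At 3R:16889948-16890598 the scores were 665.74, 107.30 and 294.01, and at 3L:3276848-3277350 they were 735.41, 131.35 and 336.55. All 5 pairs with the largest shifts downward overlapped a dCTCF peak at 48 h. So did 97.8% of all shared 0 h peaks with scores of 300 or more (2380 of 2433).

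The remaining one, 3R:24747196-24748853, lies beside another changed site. Its score was 3100 at 0 h, 384.70 at 3 h and 3068.62 at 48 h, and its width was 1658 bp at 0 h and 984 bp at 3 h. The adjoining peak 3R:24746267-24746956 had a score of 1290.41 at 0 h and none at 3 and 48 h, and CP190 lay there at 48 h only (3100). A 3 h dCTCF peak lay 899 bp away, so it was not counted as lost.

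The largest shifts upward were of 35.2 to 37.3 points, and BEAF-32 was found at 3 h at all 5 of these pairs and at 0 h at 2 of them. All 5 scored under 200 at 0 h. Of all shared 0 h peaks in that range, 76.2% had BEAF-32 at 3 h and 58.1% at 0 h. At 2L:7828191-7828595 dCTCF scored 130.86 at 0 h and 437.37 at 3 h and had no peak at 48 h, while BEAF-32 had no peak at 0 h and was at the ceiling at 3 and 48 h. At X:2157086-2157407 dCTCF scored 100.94 and 367.26, with BEAF-32 absent at 0 h and at 1038.65 at 3 h. At 3L:3787845-3788283 dCTCF scored 160.18 and 521.42, with BEAF-32 at 111.79 and 1000.78. The other pairs with a shift upward were 3L:13495544-13495993 (147.64 and 475.37) and 3L:16962717-16963238 (113.59 and 368.19), which had 48 h scores of 317.30 and 165.70.

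Peak widths differed little between the times. The median width over the pairs was 570 bp at 0 h and 587 bp at 3 h, and 1762 pairs were wider at 3 h (53.5%). The median difference was 8 bp, and the middle 50% ran from -54.0 to 63.0 bp. The centre of a peak moved by a median of 27.0 bp. More than a 1.5-fold difference in width was seen in 82 pairs that were wider (2.49%) and 77 that were narrower (2.34%). The largest widening was at 2R:13068865-13069798, which measured 934 bp at 0 h and 2862 bp at 3 h, with dCTCF scores of 101.49 and 261.16 and with BEAF-32 (373.23) found at 0 h only. The next 4 pairs were 681 to 1105 bp wider. The largest narrowing was at 3L:632953-635455, with 2503 bp and 1181 bp and dCTCF scores of 349.77 and 185.45, on a Su(Hw) peak at the ceiling at all times. Width and score went together weakly below the ceiling, with a Spearman correlation of 0.244 between the rank shift and the ratio of widths.

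Lost and gained peaks were spread over the 5 long arms at like shares, and the short arm 4 had few peaks. The lost share was 11.7% to 13.6% on X, 2L, 2R, 3L and 3R. The gained share was 16.0% on X (13.7 to 18.6) and 3R (13.8 to 18.5), 14.1% on 3L, 13.8% on 2R and 11.9% on 2L (9.68 to 14.7), with overlapping intervals. On arm 4, 8 of 34 peaks were lost (23.5%, 12.4 to 40.0) and 1 of 26 was gained (3.85%, 0.682 to 18.9). Of its 7 peaks under a score of 200 at 0 h, 6 were lost. Of its 10 pairs below the ceiling, 8 ranked over 10 points lower at 3 h and 1 higher. Over all scores the intervals of arm 4 overlap those of the other arms. Under 200 the interval of its lost share (48.7 to 97.4) overlaps only that of 2L among the long arms, and on those arms 23.1% to 30.7% of the pairs below the ceiling ranked over 10 points lower. The numbers on arm 4 are small.

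Most lost and gained peaks had no other peak of their own class within 10 kb. These classes are 12.9% and 14.5% of their lists, and no like count was made for other peaks. The nearest dCTCF peak of the same list lay at a median of 9.83 kb from lost peaks and 8.08 kb from shared peaks at 0 h, and at 7.93 kb from gained peaks and 7.75 kb from shared peaks at 3 h. The class rule in part fixes these distances, since no peak of the other list lies within 1 kb of a lost or gained peak. The 96 and 105 peaks set aside by that rule had medians of 0.918 kb at 0 h and 1.04 kb at 3 h. Linking gained peaks within 10 kb of each other gave 467 single peaks, 48 groups of 2, 7 of 3 and 2 of 4. The groups of 4 were 2R:7076572-7090614 (14.0 kb) and X:6754124-6762727 (8.60 kb), and neither span held any other dCTCF peak of the 3 h list. Lost peaks gave 447 single peaks, 31 groups of 2 and 3 of 3, the tightest being 2L:7810983-7814556 (3.57 kb).

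The 1 kb limit cut through a few neighbouring peaks. On 3L a lost peak (3L:7861917-7862306, score 121.14) and a gained peak (3L:7860471-7860913, score 136.07) faced each other at a gap of 1003 bp, and another such couple (3L:4135812-4136255 and 3L:4134365-4134794) at 1017 bp. Just inside the limit were the 0 h peak 3R:22055620-22056154, 962 bp from a 3 h peak, and the 3 h peak 3R:12056880-12057403, 998 bp from a 0 h peak. These 6 peaks had scores under 300, but another just inside the limit did not: 3R:24746267-24746956, 899 bp from a 3 h peak and described above, scored 1290.41. The 96 and 105 peaks within 1 kb had median gaps of 368 bp and 282 bp.

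At 48 h, lost sites were occupied again more often than gained sites were kept. Of the 518 lost peaks, 139 overlapped a 48 h dCTCF peak (26.8%, 23.2 to 30.8), against 94 of the 592 gained peaks (15.9%, 13.2 to 19.0) and 86.5% of the shared peaks. The share was higher with score in both classes, with 19.8%, 29.2%, 42.5% and 51.6% of the lost peaks and 11.4%, 19.9%, 23.5% and 50% of the gained peaks in the 4 score classes below the ceiling. Between lost and gained peaks of like score the intervals were apart only under 150 (15.7 to 24.6 and 8.51 to 15.2). In the lowest class 38.3% of the shared 0 h peaks and 49.9% of the shared 3 h peaks were found at 48 h, so that shared peaks of like score were found again more often. Of the lost peaks with CP190 at 3 h, 31.5% had dCTCF again at 48 h (121 of 384, 27.1 to 36.3), against 13.4% of those without (18 of 134, 8.67 to 20.2). The other partners gave a like split, with 34.6% and 19.9% for Su(Hw) and 32.9% and 16.6% for BEAF-32. For gained peaks with and without CP190 the shares were 17.6% and 14.3%, with overlapping intervals.

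**Figure D5:**
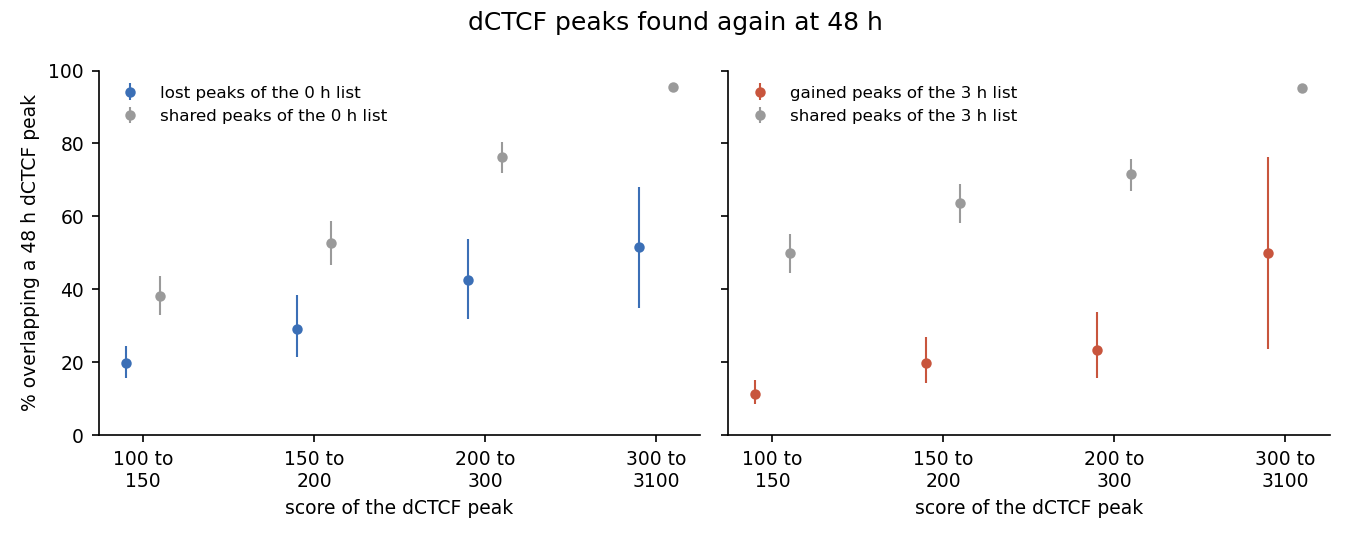
Percent of dCTCF peaks that overlap a dCTCF peak at 48 h, by score, for lost (blue) and shared (grey) peaks of the 0 h list (left) and gained (red) and shared (grey) peaks of the 3 h list (right); bars are 95% Wilson intervals. In every score class shown the shared peaks stand above the changed ones, as at 100 to 150 (38.3% against 19.8% and 49.9% against 11.4%).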

How the data were processed

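ChIP DNA of Kc167 cells was sequenced as 12 ChIP libraries, and 2 input libraries are not analysed here. The submitters' processing notes name Bowtie 0.12.5 as the aligner. The authors deposited 1 peak list for each protein and time, with a score for each peak, and the peak names in the files themselves are of the kind that MACS writes. How the score was normalised and the genome build are not stated; the sequence names are those of Release 5. No annotation of that build was used, so peaks are not placed in genes and motifs were not searched. Starts are the deposited ones plus 1.

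Peaks on U, Uextra, Het sequences and the mitochondrion were left out of the main values. Overlaps, gaps and ranks were computed in Python 3.11.15 (scipy 1.17.1, pandas 2.3.3, numpy 2.4.6); plots were drawn in matplotlib 3.10.9. The code that sorts peaks into classes was tested on simulated data. A partner was counted where its peak overlapped by 1 bp or more. Peaks scoring at least 3100 shared a tied rank.

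The peaks named are the 10 lost and 10 gained with the highest score, the 5 pairs with the largest shift in rank and in width each way, and the 3 on each side of the 1 kb limit. Members, lists and groupings were chosen with earlier results of these data known. Groups come from the labels, and with 1 library a group no test between conditions was run. Alternatives changed the overlap rule, score minimum, sequences, partner lists and ties. Read depth is unknown, so it gives no interval.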

Additional observations from a re-analysis of the deposited data

Results flagged for a closer look

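The lists also held dCTCF peaks on the unplaced sequences U and Uextra, which the comparison on the arms does not use. There were 1526 in the untreated list and 1205 at 3 h. No control sample was analysed beside them, and no value above rests on them except those given for all sequences.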

How the results depend on the processing

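Of 117 alternative values for 28 results (111 listed at the start and 6 chosen after seeing the data), 63 stayed within their interval or within 1.5 times the main count, 52 moved further and 2 reversed. A change of sign was counted as reversed only where the whole main interval lay above or below no difference. Other changes of sign are among the values that stayed or moved. Unless said otherwise the cause was not tested. The shared share (84.7%) was 82.7% with centres within 250 bp, 92.7% and 86.3% against the strongest 50% of peaks and scores of at least 200, and 81.5% on all sequences. A minimum score of 200 for the lost or gained peak alone left 91 gained and 104 lost peaks, since fewer peaks enter. The strongest 50% of both lists gave 171 gained and 128 lost. These take in peaks whose counterpart fell below the cut of the other list. Against the full lists, only 10 gained and 31 lost peaks scored 300 or more. All sequences gave 844 lost peaks. Rank shifts over 10 points were 52.7% without ceiling pairs and 35.7% on all sequences, where 57.5% of pairs were wider. With a minimum score of 200 the share on the 5 long arms was 3.17% to 3.88% lost and 2.51% to 3.75% gained. Counting every peak without overlap gave 14.9% to 15.6% lost and 14.2% to 19.0% gained.

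The difference in Su(Hw) share, gained minus shared (-5.34 points), reversed to 3.23 on all sequences and 18.6 at dCTCF scores of 300 or more (10 gained peaks). The CP190 difference at lost peaks (-1.79) was -6.58 with partner scores of at least 200, -11.9 on all sequences, and -13.7 and 4.73 at dCTCF scores of 200 to 300 and above. At gained peaks (-27.2) it was -36.0, -47.0 and -60.2 at 150 to 200, 200 to 300 and above. For BEAF-32 at lost peaks (-0.895) it was 8.91 on all sequences and -12.4, -10.9 and -13.1 in those score classes. At gained peaks (0.442) it was -9.96 under 150, then -17.2, -22.3 and -10.4. Presence at 48 h by score was 19.8%, 42.5% and 51.6% for lost peaks (under 150, 200 to 300, above) and 11.4%, 19.9%, 23.5% and 50% for gained peaks. Neighbours within 10 kb were 56.0% and 62.8% when both lists were joined (50.8% and 58.6%). The gained share with Su(Hw) and no CP190 exceeded that with CP190 by 18.8 points at dCTCF scores of 200 or more, and by 32.1 to 35.5 points in the other 5 alternatives.

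No paired analysis was possible because each time has 1 library. Leaving out a library was not done for the same reason. The peaks in genes and the dCTCF motif were not run.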
